A study of Mus musculus with 6 samples.

Results

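The carbonic anhydrases Car1, Car2, Car5b, Car12 and Car13 were followed in RNA from mouse splenic regulatory T (Treg) cells, a class of CD4 lymphocyte that holds immunity in check and depends on the transcription factor Foxp3. The genes were taken by symbol, and all 5 were among the 14608 genes listed in both deposited tables. RNA came from 2 wild type (WT) mice, 2 mice heterozygous for a Cdc42 knockout (Cdc42+/-) and 2 mice homozygous for it (Cdc42-/-), in 2 libraries per genotype. The labels do not say whether each library is a single mouse. Cdc42 is a small GTPase that organises the actin cytoskeleton. After lysis of red blood cells and magnetic enrichment of CD4 cells, cells positive for CD4 and the fluorescent protein YFP were sorted, in all 3 genotypes. The labels do not name what drives YFP or the deletion, and give no age, sex or batch. Levels are given as RPKM, reads scaled by gene length and by the total reads of the library, so that genes of different length can be compared. Differences are on the log2(RPKM + 1) scale, which understates changes of low genes, and their adjusted p-values come from limma with Benjamini-Hochberg adjustment over 12233 genes at a threshold of 0.05.

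Carbonic anhydrases are zinc enzymes that interconvert carbon dioxide and water with bicarbonate and a proton, and so take part in pH control, gas transport and the supply of bicarbonate to metabolism. Car1, Car2, Car3 and Car13 encode cytosolic enzymes, Car5b a mitochondrial enzyme, and Car12 an enzyme of the plasma membrane whose catalytic domain faces outward. Car1 and Car2 are known as abundant proteins of red blood cells, and Car2 is also found in many other cell types. In lymphocytes the same chemistry accompanies the export of acid that active metabolism produces.

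The genes are paralogs, so the coding sequence around the catalytic zinc site is shown for each to let the copies be compared. The stretches were read from the GRCm38 genome with the GENCODE M21 annotation, 5′ to 3′ on the coding strand, and each lies within 1 coding exon. Capitals mark the codons of a pair of zinc-binding histidines, which are separated by 1 residue. They come from Car1 (chr3:14776263-14776307, minus strand), Car2 (chr3:14895051-14895095, plus strand), Car13 (chr3:14650688-14650732, plus strand), Car5b (chrX:163991396-163991440, minus strand) and Car12 (chr9:66747629-66747673, plus strand).
Car1: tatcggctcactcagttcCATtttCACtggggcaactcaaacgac
Car2: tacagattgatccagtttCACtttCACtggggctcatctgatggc
Car13: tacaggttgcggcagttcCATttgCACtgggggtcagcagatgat
Car5b: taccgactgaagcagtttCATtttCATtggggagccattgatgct
Car12: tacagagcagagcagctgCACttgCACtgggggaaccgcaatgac
The pair of histidine codons was present in all 5 genes, while the bases around it differed. Car1 and Car2 matched at 29 of these 45 bases and at 63.87% of aligned coding bases. Across the 15 pairs formed by these genes and Car3, coding identity ranged from 55.97% to 66.07%. Over whole protein-coding transcripts, with untranslated parts and both strands, no 50-base stretch was shared by any pair. There were 6 shared stretches of 25 bases, which may overlap one another, all between Car13 and Car2. The read length is not given in the sources used here, so Car13 and Car2 reads of these stretches may have been shared.

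The libraries held 8556576 to 17796100 reads in genes. The targeted gene, Cdc42, checked the labels first: it had 166 and 161 RPKM in WT, 164 and 156 in the libraries labelled Cdc42+/-, and 122 and 173 in the libraries labelled Cdc42-/-. Neither difference from WT passed the test (limma adjusted p 0.999 and 0.550), so the gene's total level did not separate the genotypes as labelled. Without Cdc42-/- replicate 2, Cdc42 was lower in Cdc42-/- than in WT (log2 fold change -0.42, limma adjusted p 0.0166) and than in Cdc42+/- (adjusted p 0.0259). The Treg marker Foxp3 was present in every library, at 58.4 to 131 RPKM. Cdc42-/- replicate 2 stood apart from the other libraries by its levels of myeloid, granulocyte and erythroid genes, and the main results are also given without it. Sex-linked genes also differed: Xist, the RNA of the inactive X chromosome, had 0.199 and 1.13 RPKM in the WT libraries, 99.3 and 93.3 in the Cdc42+/- libraries, and 87.4 and 21.2 in Cdc42-/-. The Y-linked gene Ddx3y had 37.7 and 42.4 RPKM in the WT libraries, 0.126 and 0 in the Cdc42+/- libraries, and 0.0974 and 27.5 in Cdc42-/-. Cdc42-/- replicate 2 thus held both Xist and Y-linked RNA, while each other library held mainly one of them. Xist was itself called in Cdc42-/- against WT (log2 fold change 4.80, SE 0.62, limma adjusted p 0.00753), with both Cdc42-/- libraries above both WT libraries. For every difference between WT and Cdc42+/-, and for every difference between WT and Cdc42-/- with Cdc42-/- replicate 2 left out, genotype and sex-linked expression cannot be told apart.

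Among the carbonic anhydrases, Car1 and Car5b were higher and Car12 lower in Cdc42-/- Treg cells than in WT. These were 3 of the 4 members tested, where 11.4% of all tested genes passed in either direction (6.86% higher, 4.57% lower). Between Cdc42-/- and Cdc42+/-, Car5b alone of the 4 passed, where 8.22% of all tested genes did (4.68% higher, 3.54% lower). Between Cdc42+/- and WT, limma called 0 of 4, where 0% of all tested genes were called. There, 0 of 4 members had an unadjusted p below 0.05, against 4.32% of all tested genes, and limma's voom on recovered reads also called 0. The libraries of Cdc42-/- and WT did not overlap for 4 of 4 tested members, a pattern seen in 56% of tested genes. They did not overlap for 3 of 4 between Cdc42+/- and WT (43.2% of tested genes) and for 4 of 4 between Cdc42-/- and Cdc42+/- (59%). The median log2 fold change of the 4 members was 2.45 in Cdc42-/- against WT, beside 0.01 over all tested genes. It was 1.59 without Cdc42-/- replicate 2. In Cdc42+/- against WT the members' median was 0.38, beside 0.03 over all tested genes, and it was -0.05 without WT replicate 1 and 0.81 without WT replicate 2. In bulk RNA, a change in the share of cells that hold a transcript and a change in its amount per cell cannot be told apart.

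**Figure D1:**
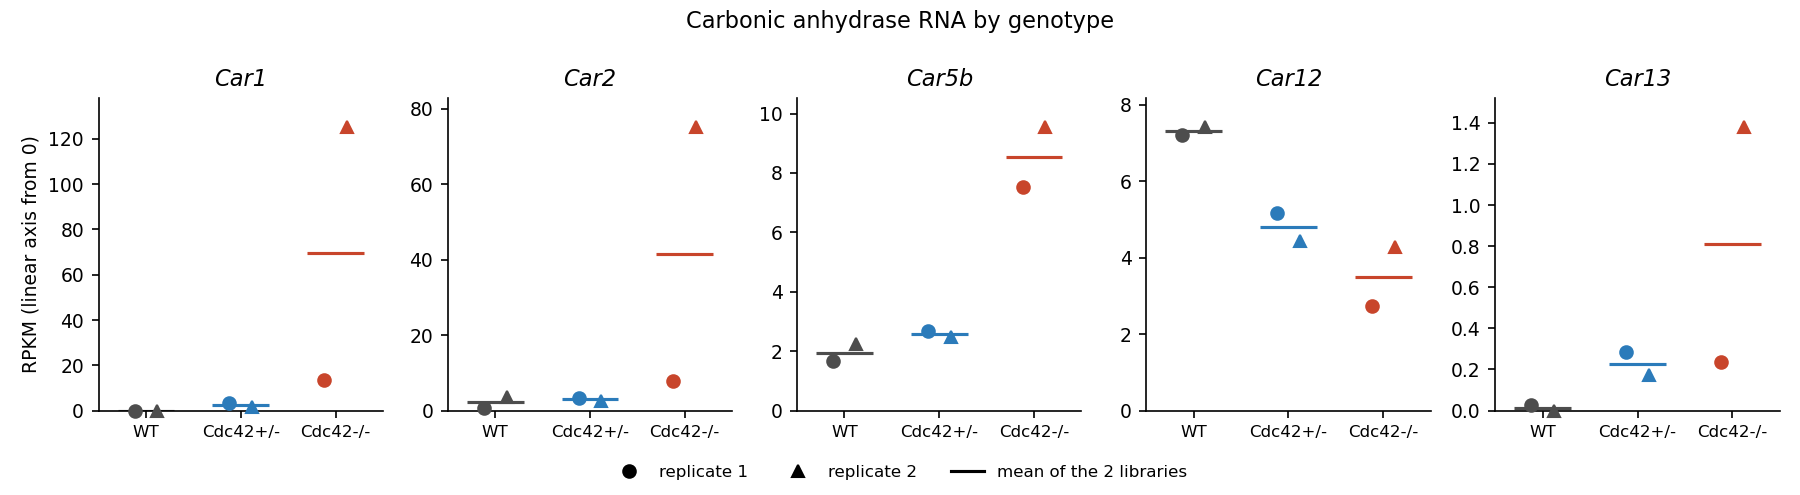
RPKM of each carbonic anhydrase (vertical axes, linear, each from 0) in the 2 libraries of WT, Cdc42+/- and Cdc42-/-; circles are replicate 1, triangles replicate 2 and lines the mean. Car1 and Car2 reach 125 and 75.2 RPKM in Cdc42-/- replicate 2, while the 2 Cdc42-/- libraries lie close together for Car5b at 7.52 and 9.55 RPKM.

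Car1, a cytosolic enzyme best known from red blood cells, had no read in either WT library and the highest level of the family in both Cdc42-/- libraries. Its RPKM was 0 and 0 in the WT libraries, 3.38 and 1.54 in the Cdc42+/- libraries, and 13.6 and 125 in Cdc42-/-, from 0 and 0, 68 and 36, and 197 and 1499 reads. The genotypes did not overlap, and the levels ran from WT through Cdc42+/- to Cdc42-/-. In WT, 3 reads, about the upper 95% limit for a count of 0, correspond to 0.144 and 0.268 RPKM. Against the mean of those floors, Car1 was at least 11.97-fold higher in Cdc42+/- (2.46 ± 1.30 RPKM, SD, n = 2) and at least 337.59-fold higher in Cdc42-/- (69.5 ± 79.0 RPKM, SD, n = 2). By library these bounds were 16.4-fold and 7.505-fold in Cdc42+/-, and 66.1-fold in Cdc42-/- replicate 1 and 609-fold in replicate 2, so replicate 2 sets most of the Cdc42-/- mean.

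The fitted log2 fold change of Car1 was 5.43 in Cdc42-/- against WT (SE 0.93, limma adjusted p 0.0178). It was 1.74 in Cdc42+/- against WT (SE 0.93, 95% interval -0.52 to 4.0, limma adjusted p 0.999), and 3.69 in Cdc42-/- against Cdc42+/- (SE 0.93, 95% interval 1.43 to 5.94, limma adjusted p 0.0652). Neither of these steps passed the threshold. The SE of 0.93 pools the spread of all 3 genotypes, which for Car1 was widest in Cdc42-/-. A fit of WT and Cdc42+/- alone kept the step of 1.74 with an SE of 0.29 (limma adjusted p 0.0835). A fit of Cdc42+/- and Cdc42-/- alone kept the step of 3.69 with an SE of 1.05 (limma adjusted p 0.145). Both steps thus stayed short of the threshold, but 0.999 for the first partly reflects the spread of Cdc42-/-. The replicates of Cdc42-/- differed 9.21-fold, with an SD of 2.2 on the log2 scale that exceeded the SD of 98.9% of tested genes in that genotype. Without Cdc42-/- replicate 2, Car1 remained higher in Cdc42-/- than in WT (3.87, SE 0.35, limma adjusted p 0.00118) and was higher than in Cdc42+/- (2.13, SE 0.35, limma adjusted p 0.0117). The call against WT was lost with only these 2 genotypes in the fit (limma adjusted p 0.0548), with voom on recovered reads (adjusted p 0.462), and when WT replicate 1, WT replicate 2, Cdc42+/- replicate 1 or Cdc42+/- replicate 2 was left out (limma adjusted p 0.0527 to 0.131).

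Car2, the fast and widely expressed cytosolic enzyme, was highest in Cdc42-/-, but the difference did not pass the test. Its RPKM was 0.702 and 3.65 in the WT libraries, 3.20 and 2.64 in the Cdc42+/- libraries, and 7.78 and 75.2 in Cdc42-/-. Both Cdc42-/- libraries lay above the other 4, and the Cdc42+/- libraries lay inside the range of WT. The group means were 2.18 ± 2.09 RPKM in WT, 2.92 ± 0.40 in Cdc42+/- and 41.5 ± 47.7 in Cdc42-/- (SD, n = 2 each). The log2 fold change was 3.20 against WT (SE 0.99, 95% interval 0.79 to 5.61, limma adjusted p 0.0931) and 2.73 against Cdc42+/- (SE 0.99, 95% interval 0.31 to 5.14, limma adjusted p 0.147). Between Cdc42+/- and WT it was 0.47 (SE 0.99, 95% interval -1.94 to 2.89, limma adjusted p 0.999).

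The spread of Car2 was wide in both outer genotypes. The 2 WT libraries differed 5.21-fold, an SD larger than that of 99.0% of tested genes in WT, and the 2 Cdc42-/- libraries differed 9.66-fold. Without Cdc42-/- replicate 2 the difference from WT was 1.64 (SE 0.54, limma adjusted p 0.0823). Without Cdc42-/- replicate 1 it was 4.76 (SE 0.53, limma adjusted p 0.00101). Car1 and Car2 kept nearly the same proportion in the 2 Cdc42-/- libraries, with a ratio of Car1 to Car2 RPKM of 1.75 and 1.67. The ratio was 1.06 and 0.586 in Cdc42+/-, and 0 in both WT libraries.

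Car13, a further cytosolic enzyme, was close to the limit of detection. It had 1 and 0 reads in WT (0.0273 and 0 RPKM), 10 and 7 in Cdc42+/- (0.283 and 0.171 RPKM), and 6 and 29 in Cdc42-/- (0.236 and 1.38 RPKM). Every library with a Cdc42 knockout allele by its label lay above both WT libraries, while the Cdc42+/- and Cdc42-/- libraries overlapped. Per read of the libraries, Car13 was 42.4-fold of WT in Cdc42-/- (95% interval 7.13 to 1724, exact, counting error only), resting on 1 WT read. Without Cdc42-/- replicate 2 the ratio was 13.3 (1.61 to 611), and for Cdc42+/- it was 12.6 (1.97 to 525). Its mean over the 6 libraries was below the 0.5 RPKM needed for the test. With no such filter, the limma adjusted p was 0.190 for Cdc42-/- against WT.

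Car5b, the mitochondrial enzyme, was the member with the most even rise in Cdc42-/- Treg cells. Its RPKM was 1.66 and 2.24 in the WT libraries, 2.66 and 2.49 in the Cdc42+/- libraries, and 7.52 and 9.55 in Cdc42-/-, from 66 to 301 reads per library. Both Cdc42-/- libraries lay well above the other 4, which fell within a narrow range. Mean levels were 1.95 ± 0.408, 2.58 ± 0.122 and 8.54 ± 1.44 RPKM (SD, n = 2 each), so that Cdc42-/- was 4.39-fold of WT and 3.31-fold of Cdc42+/-. The log2 fold change was 1.69 against WT (SE 0.21, limma adjusted p 0.00636) and 1.41 against Cdc42+/- (SE 0.21, limma adjusted p 0.0166). Between Cdc42+/- and WT it was 0.29 (SE 0.21, 95% interval -0.22 to 0.80, limma adjusted p 0.999), although the libraries did not overlap.

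The SD of Car5b between the Cdc42-/- libraries, 0.218 on the log2 scale, exceeded that of 50.4% of tested genes, in contrast to Car1 and Car2. With Cdc42-/- replicate 2 left out the change was 1.54 against WT (SE 0.24, limma adjusted p 0.00706) and 1.25 against Cdc42+/- (SE 0.24, limma adjusted p 0.0182). Car5b lies on the X chromosome, and Xist was high and Ddx3y at most 0.126 RPKM in Cdc42-/- replicate 1 and in both Cdc42+/- libraries. Among those 3 libraries Car5b was 7.52 RPKM in Cdc42-/- and 2.66 and 2.49 in Cdc42+/-. The call against WT was lost without WT replicate 1 (limma adjusted p 0.0628). The call against Cdc42+/- was lost without either WT library or either Cdc42+/- library (limma adjusted p 0.0504 to 0.173).

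Car12, the membrane enzyme that acts outside the cell, was the only member lower in Cdc42-/- than in WT, and it was the leading carbonic anhydrase of WT Treg cells. Its RPKM was 7.20 and 7.42 in the WT libraries, 5.16 and 4.44 in the Cdc42+/- libraries, and 2.73 and 4.27 in Cdc42-/-, from 112 to 426 reads per library. The 3 genotypes did not overlap, although Cdc42+/- replicate 2 and Cdc42-/- replicate 2 were close. Mean levels were 7.31 ± 0.153, 4.80 ± 0.503 and 3.50 ± 1.09 RPKM (SD, n = 2 each), so that WT was 2.09-fold of Cdc42-/-. Relative to WT, the log2 fold change was -0.91 in Cdc42-/- (SE 0.22, limma adjusted p 0.0491) and -0.52 in Cdc42+/- (SE 0.22, 95% interval -1.05 to 0.01, limma adjusted p 0.999). Between Cdc42-/- and Cdc42+/- it was -0.39 (SE 0.22, 95% interval -0.91 to 0.14, limma adjusted p 0.301).

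The Car12 call lay just inside the threshold. It was lost with no filter on low genes (limma adjusted p 0.0740), with only these 2 genotypes in the fit (0.133), with weights per library (0.0941), and without either WT library or either Cdc42+/- library (0.129 to 0.229). It was larger, at -1.16, without Cdc42-/- replicate 2 (SE 0.20, limma adjusted p 0.0103).

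**Figure D2:**
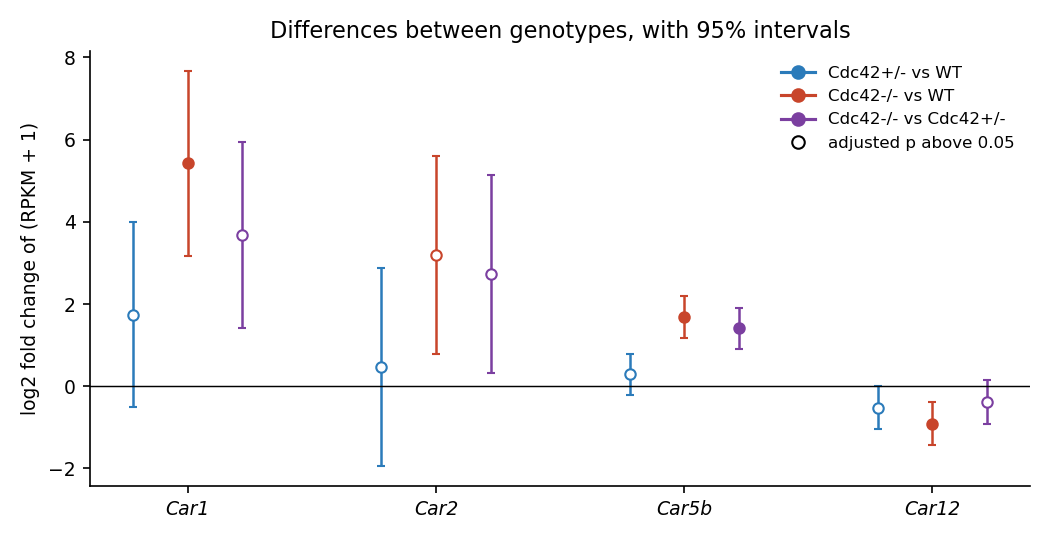
Fitted log2 fold change of RPKM + 1 (vertical axis) for the 4 tested carbonic anhydrases in the 3 comparisons, with 95% intervals; filled points have a limma adjusted p of at most 0.05. Intervals are wide for Car1 and Car2 and narrow for Car5b and Car12, and the filled points are Car1, Car5b and Car12 in Cdc42-/- against WT and Car5b in Cdc42-/- against Cdc42+/-.

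The order of the enzymes changed between genotypes. Car12 had the highest RPKM of the 5 genes in both WT and both Cdc42+/- libraries, with 75.1% and 55.7% of their summed RPKM in WT. In both Cdc42-/- libraries the order from high to low was Car1, Car2, Car5b, Car12 and Car13. The summed RPKM of the 5 genes was 9.59 and 13.3 in the WT libraries, 14.7 and 11.3 in the Cdc42+/- libraries, and 31.9 and 216 in Cdc42-/-. The Cdc42-/- libraries thus had the highest sums, and nearly all of the 216 RPKM in replicate 2 came from Car1 and Car2. In that library Car1 stood at the 96.9th percentile of listed genes and Car2 at the 93.9th, against the 63.5th and 51.3rd in replicate 1.

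Car13, Car1, Car3 and Car2 lie side by side on chromosome 3, at chr3:14641727-14663002, chr3:14766214-14808365, chr3:14863538-14872381 and chr3:14886269-14900770 (RefSeq, GRCm38). Car12 lies on chromosome 9 (chr9:66712296-66766845) and Car5b on chromosome X (chrX:163976822-164028010). Car1 overlaps the annotated pseudogene Gm16399 and Car5b the noncoding gene Gm38561. As the strand setting of the counting is not given in the sources used here, reads within each overlap cannot be told apart. Whether the overlaps reach exons of Car1 or Car5b was not checked. The level of Car3, a cytosolic enzyme best known from muscle and fat, stood at 0.616 and 5.81 RPKM in the WT libraries, 0.938 and 1.102 in the Cdc42+/- libraries, and 2.19 and 6.52 in Cdc42-/-. WT replicate 2 was nearly as high as the highest Cdc42-/- library, so the Cdc42-/- and WT libraries overlapped, while the Cdc42-/- libraries lay above those of Cdc42+/- (limma adjusted p at least 0.299 in the 3 comparisons). On the other side of the cluster, Rbis, a factor of ribosome assembly, had 49.4 to 83.3 RPKM and E2f5, a transcription factor of the E2F family, 2.87 to 7.11 RPKM, and neither passed the test in any comparison. Against WT in Cdc42-/-, the limma adjusted p was 0.398 for Rbis and 0.982 for E2f5.

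**Figure D3:**
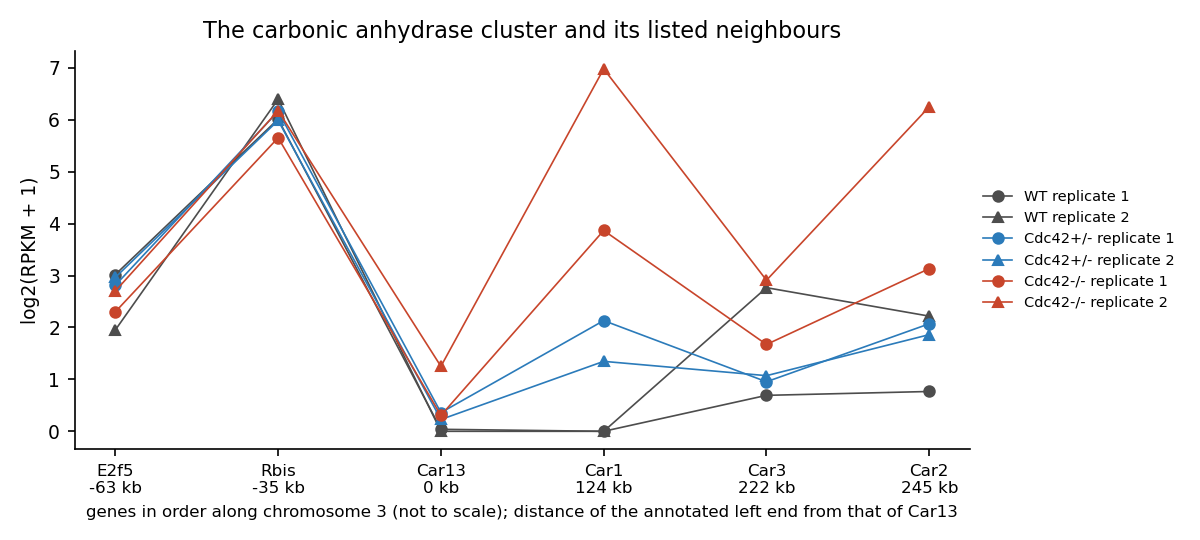
Levels as log2(RPKM + 1) (vertical axis) of genes in their order along chromosome 3 (horizontal axis, not to scale), 1 line per library. The lines lie closer together at E2f5 and Rbis than at Car1 and Car2, where Cdc42-/- replicate 2 is highest at 125 and 75.2 RPKM and the WT libraries are at 0 for Car1.

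Markers of other cell types differed between the same libraries. Of 21 erythroid genes sought by symbol, which included the globins, 13 were listed, none of them a globin. Their summed RPKM was 23.5 and 27.5 in the WT libraries, 17.96 and 18.14 in the Cdc42+/- libraries, and 44.6 and 109.7 in Cdc42-/-. Much of this sum in the low libraries was Gata1, a transcription factor of erythroid cells and mast cells, with 20.6 and 23.4 RPKM in the WT libraries and 13.9 and 13.7 in those of Cdc42+/-. The number of listed erythroid genes at 0 was 3 and 4 in WT, 3 and 2 in Cdc42+/-, and 0 in both Cdc42-/- libraries.

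Slc4a1 is the anion exchanger of the red cell membrane that works with carbonic anhydrases. It was the 1 erythroid gene of 11 tested that passed in Cdc42-/- against WT, where 11.4% of all tested genes did. Of the 11, 10 were below an unadjusted p of 0.05, and voom called 0, beside 10.9% of all tested genes. The share of all tested genes below an unadjusted p of 0.05 was worked out only for Cdc42+/- against WT (4.32%). Unadjusted counts in the other comparisons thus have no such share beside them. The RPKM of Slc4a1 was 0.110 and 0.128 in the WT libraries, 0.043 and 0.222 in the Cdc42+/- libraries, and 2.88 and 11.45 in Cdc42-/- (log2 fold change 2.63, SE 0.54, limma adjusted p 0.0313). The call was lost with only these 2 genotypes in the fit (0.0854), with voom (adjusted p 0.173), and without either WT library or either Cdc42+/- library (limma adjusted p 0.0858 to 0.169). Without Cdc42-/- replicate 1 limma called 10 of the 11 erythroid genes against WT and 36.2% of all tested genes, and without Cdc42-/- replicate 2 it called 4 of the 11 and 18.5% of all. All 11 tested erythroid genes had a log2 fold change above 0 in Cdc42-/- against WT, with a median of 1.86 beside 0.01 over all tested genes. All 11 were also above 0 without Cdc42-/- replicate 2, with a median of 0.94. Against Cdc42+/-, all 11 were above 0 in Cdc42-/- as well, and 2 were called, or 18.2% beside 8.22% of all tested genes (9 below an unadjusted p of 0.05, 1 called by voom). These were Slc4a1 (2.62, SE 0.54, limma adjusted p 0.0389) and Gata1 (0.98, SE 0.12, limma adjusted p 0.0107), which had 27.6 and 29.01 RPKM in Cdc42-/-. Slc4a1 lost that call with only these 2 genotypes in the fit (limma adjusted p 0.0996), with voom (adjusted p 0.149) and without either WT library (limma adjusted p 0.0998 and 0.0995), and neither gene was called without either Cdc42+/- library. The count was 11 without Cdc42-/- replicate 1 and 5 without replicate 2 (34.8% and 14.9% of all tested genes). Between Cdc42+/- and WT, the median log2 fold change of the erythroid genes was 0.01 and limma called 0 of 11 (1 at an unadjusted p under 0.05, 0 by voom). Rhag, a membrane protein of red cells, was at most 0.097 RPKM in every WT and Cdc42+/- library, and had 1.796 RPKM in Cdc42-/- replicate 1 and 9.41 in replicate 2.

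The myeloid and neutrophil lists had their highest sums in Cdc42-/- replicate 2. The 18 listed myeloid genes summed to 209 and 232 RPKM in the WT libraries, 209 and 188 in the Cdc42+/- libraries, and 138 and 1538 in Cdc42-/-. Most of the lower sums was Ctss, a lysosomal protease, and without it they were 19.2 and 24.7 RPKM in the WT libraries, 38.9 and 39.04 in the Cdc42+/- libraries, and 27.5 and 1267 in Cdc42-/-. Between Cdc42+/- and WT, 14 of the 18 myeloid genes had a log2 fold change above 0, with a median of 0.46 beside 0.03 over all tested genes, and limma called 0 (0 at an unadjusted p under 0.05, 0 by voom). Lyz2, the lysozyme of macrophages and granulocytes, had 0.119 and 2.65 RPKM in the WT libraries, 5.30 and 7.28 in the Cdc42+/- libraries, and 9.75 and 600.2 in Cdc42-/-. Lyz2 was chosen after its values were seen, and not every gene of the list followed its order: Cybb, a subunit of the phagocyte oxidase, had 11.8 and 12.6 RPKM in the WT libraries, 12.2 and 10.7 in the Cdc42+/- libraries, and 0.685 and 63.5 in Cdc42-/-. With Cdc42-/- replicate 2 left out, 12 of the 18 myeloid genes were above 0 in Cdc42-/- against WT, with a median of 0.12, and 6 of the 18 against Cdc42+/-, with a median of -0.29. The 8 neutrophil genes summed to 16.3 and 57.1 RPKM in the WT libraries, 18.3 and 31.8 in the Cdc42+/- libraries, and 33.6 and 546 in Cdc42-/-. Limma called 0 of the 18 myeloid and 0 of the 8 neutrophil genes in Cdc42-/- against WT, where 11.4% of all tested genes were called. Below an unadjusted p of 0.05, a looser threshold with no share of all tested genes beside it, there were 5 and 2. Voom called 0 and 0.

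The 6 mast cell and basophil genes summed to 2.16 and 1.66 RPKM in the WT libraries, 6.89 and 11.99 in the Cdc42+/- libraries, and 4.70 and 117 in Cdc42-/-, and 3 of them were at 0 in each WT library. Mcpt8, a basophil protease, had 0 and 0 RPKM in the WT libraries, 2.64 and 3.49 in the Cdc42+/- libraries, and 1.73 and 40.2 in Cdc42-/-. Prss34, another protease of these cells, had 0 and 0 RPKM in the WT libraries, 2.52 and 3.46 in the Cdc42+/- libraries, and 0.372 and 28.4 in Cdc42-/-. Like Car1, both were thus at 0 in WT and above 0 in each Cdc42+/- library, as was the complement gene C1qc of the myeloid list. C1qc had 0.865 and 0.799 RPKM in Cdc42+/-, and 0.0858 and 5.30 in Cdc42-/-. In Cdc42-/- replicate 1, Mcpt8, Prss34 and C1qc lay below both Cdc42+/- libraries, while Car1 lay above them at 13.6 RPKM. These genes were named after their values were seen. Cpa3 of the same list differed, at 1.25 and 0.563 RPKM in WT, and 0.404 and 1.47 in Cdc42+/-. Limma called 0 of the 6 mast cell and basophil genes in Cdc42-/- against WT, beside the same 11.4% (1 at an unadjusted p under 0.05, 0 by voom). B cell genes summed to 11.4 to 22.4 RPKM in all libraries.

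Over genes with reads in Cdc42-/- replicate 1, the 2 Cdc42-/- libraries differed by a median of 4.45-fold over erythroid, 35.3-fold over myeloid, 13.04-fold over neutrophil and 23.3-fold over mast cell and basophil genes (17 of the 18 myeloid and 5 of the 6 mast cell and basophil genes had such reads), replicate 2 being the higher. Over all tested genes the median ratio was 1.03, and over 8 T and Treg cell genes it was 0.773. The ratio was 9.21 for Car1, 9.66 for Car2 and 1.27 for Car5b. T and Treg genes summed to 1872 and 1811 RPKM in the WT libraries, 1842 and 1748 in the Cdc42+/- libraries, and 1409 and 1141 in Cdc42-/-, and 4 of the 8 were lower in Cdc42-/- than in WT (limma), where 11.4% of all tested genes were called. That count was 0 without either WT library or either Cdc42+/- library (2.12% to 4.496% of all tested genes), 0 with only these 2 genotypes in the fit (4.38%), and 7 without Cdc42-/- replicate 1 (36.2%). The part of these other transcripts in the levels of Car1, Car2 and Car13 was not tested.

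**Figure D4:**
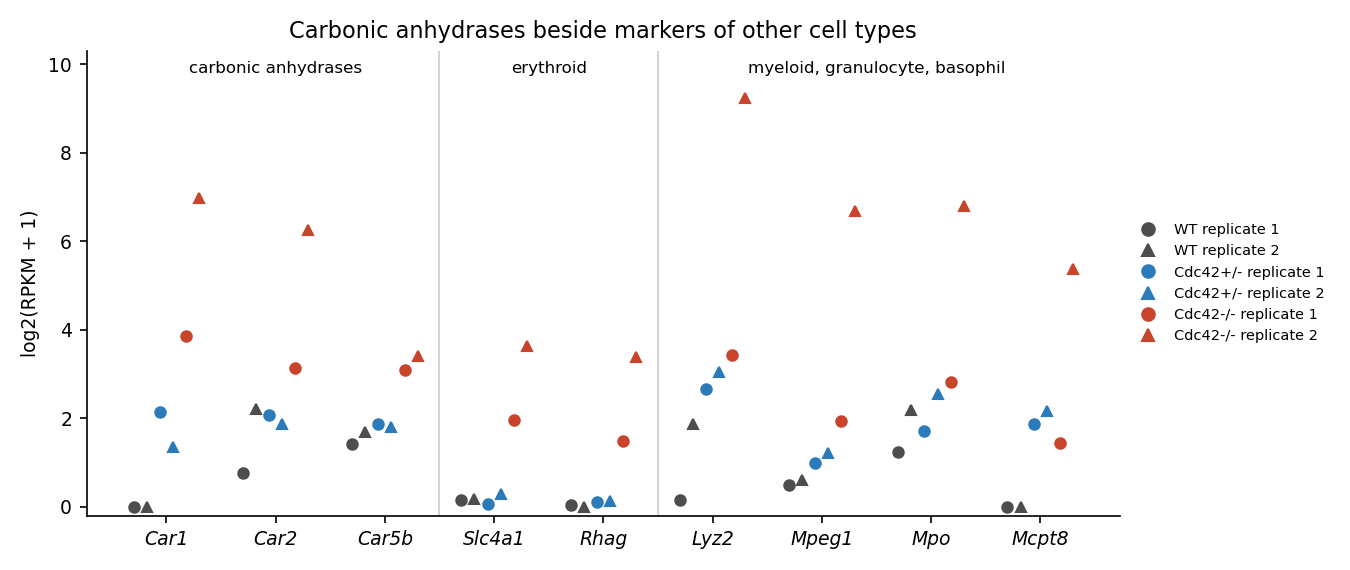
Levels as log2(RPKM + 1) (vertical axis) of 3 carbonic anhydrases beside erythroid markers and markers of myeloid cells, granulocytes and basophils, with 1 point per library. Cdc42-/- replicate 2 (red triangles) is the highest library for each gene shown, and only for Car5b does replicate 1 lie close to it, at 7.52 against 9.55 RPKM.

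Profiles over the 6 libraries were then compared by the root mean square difference of log2(RPKM + 1) centred per gene, a description over 11511 genes in which all points share the same libraries. The profiles nearest to Car1 were those of Lgals3 (0.573), a galectin of macrophages and activated cells, Ifitm3 (0.747), an interferon-induced membrane protein, Ly6c2 (0.793), a surface antigen of monocytes and some T cells, and Mpeg1 (0.887), the perforin-like protein of phagocytes. Nearest to Car2 were Cd24a (0.337), a surface antigen of immature blood cells, Ly6c2 (0.363), the granulocyte peroxidase gene Mpo (0.417) and Tnfaip2 (0.420). Car5b lay nearest to Mcm3 (0.0581), a subunit of the replicative helicase, Chek1 (0.0838), a checkpoint kinase, Sytl3 (0.0882) and Phf19 (0.0897), a subunit of Polycomb complexes. Car12 lay nearest to Lyrm5 (0.0854), Btbd16 (0.102), Atp5s (0.104) and Nt5dc1 (0.107). Close profiles were common for the last pair of genes, with 159 genes within 0.25 of Car5b and 429 within 0.25 of Car12. For Car1 and Car2, 0 genes lay within 0.25, so the genes named nearest to them were not close by this measure.

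Of the other carbonic anhydrases, 9 were listed and 5 had enough reads to be tested. Limma called 0 of these 5 in each comparison. Of all tested genes it called 11.4% in Cdc42-/- against WT, 8.22% in Cdc42-/- against Cdc42+/-, and 0% in Cdc42+/- against WT. Of the 5, 1 was below an unadjusted p of 0.05 in Cdc42-/- against WT and none in the other comparisons, and voom called 0. That 1 gene was Car11, a secreted relative that lacks enzymatic activity, at 4.32 and 2.92 RPKM in the WT libraries, 3.35 and 2.03 in the Cdc42+/- libraries, and 1.19 and 1.67 in Cdc42-/- (log2 fold change -0.92, SE 0.28, limma adjusted p 0.0937). Car15, a membrane-anchored enzyme, was even across libraries, at 3.27 to 5.34 RPKM. Car7 ranged from 0.546 to 2.39 RPKM and Car9, an enzyme induced by low oxygen, from 0.224 to 0.998 RPKM. Car4, Car8, Car10 and Car14 were not tested and did not exceed 0.758, 0.209, 0.263 and 0.719 RPKM in any library. Car5a and Car6 were not among the listed genes.

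Carbonic anhydrases work with transporters of protons, bicarbonate and lactate, and 26 of a list of 29 such genes and their partners were listed, with 23 tested. In Cdc42-/- against WT, 1 was higher and 1 lower (8.7% of the 23, below the 11.4% of all tested genes called), and the median log2 fold change was -0.06 beside 0.01 over all tested genes. The higher gene was Slc16a3, a lactate and proton exporter of glycolytic cells, at 3.97 and 1.86 RPKM in the WT libraries, 4.78 and 2.64 in the Cdc42+/- libraries, and 14.5 and 16.9 in Cdc42-/- (2.14, SE 0.34, limma adjusted p 0.0137). Like Car5b, it was even between the Cdc42-/- libraries and far above the other 4, and its call was lost without WT replicate 2 (limma adjusted p 0.0887) and with weights per library (0.0512). The lower gene was Tesc, which encodes a partner protein of the sodium-proton exchanger, at 30.0 and 36.8 RPKM in the WT libraries, 33.3 and 34.2 in the Cdc42+/- libraries, and 21.9 and 21.5 in Cdc42-/- (-0.59, SE 0.13, limma adjusted p 0.0375). The Tesc call was lost without either WT library or either Cdc42+/- library (limma adjusted p 0.0827 to 0.205), with only these 2 genotypes in the fit (0.121), with voom (0.0967) and with weights per library (0.0926). The count on this list was 0 without WT replicate 2, 1 without WT replicate 1 or either Cdc42+/- library, and 8 without Cdc42-/- replicate 1, where 36.2% of all tested genes were called.

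In Cdc42-/- against Cdc42+/-, Slc16a3 was again higher (1.86, limma adjusted p 0.0273) and 3 genes were lower (4 of 23, or 17.4%, beside 8.22% of all tested genes), with a median over the list of -0.22 beside -0.01 over all tested genes. They included Tesc (-0.62, limma adjusted p 0.0411) and Slc9a7, a sodium-proton exchanger of the Golgi (-1.30, limma adjusted p 0.0343). Slc9a7 had 9.08 and 5.35 RPKM in the WT libraries, 11.5 and 9.60 in the Cdc42+/- libraries, and 3.33 and 4.04 in Cdc42-/-. Without either Cdc42+/- library or WT replicate 1, 0 of the 23 were called, without WT replicate 2, 1, and without Cdc42-/- replicate 1 or 2, 10 and 7 (34.8% and 14.9% of all tested genes). The Tesc call was also lost with voom (adjusted p 0.0716) and the Slc9a7 call with no filter on low genes (limma adjusted p 0.0514). Slc16a3, Tesc and Slc9a7 lost their calls with only these 2 genotypes in the fit (limma adjusted p 0.0508 to 0.0712) and with weights per library (0.0690 to 0.0754). Between Cdc42+/- and WT limma called 0 of the 23 (2 at an unadjusted p under 0.05, 0 by voom), and 20 of the 23 had a log2 fold change above 0, with a median of 0.14 beside 0.03 over all tested genes (15 of 23 and 0.03 without WT replicate 2). It called 1 of the 23 (4.35%) with only these 2 genotypes in the fit and without Cdc42-/- replicate 1 or 2, beside 0.490%, 0.621% and 0.540% of all tested genes.

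The authors' deposited table gives other values for the same libraries, and the cause of the differences was not tested. For Car1, the authors' deposited table gives a log2 fold change of 8.53 in Cdc42+/- (adjusted p 1.67e-06) and 12.93 in Cdc42-/- (adjusted p 7.97e-18), both against a WT level of 0, so these depend on how that 0 was handled. The authors' deposited table gives Car2 in Cdc42-/- as 4.20 (adjusted p 0.000188) and Car5b as 2.09 (adjusted p 0.00128). For Car12 the authors' deposited table gives -0.64 in Cdc42+/- (adjusted p 0.0373) and -1.12 in Cdc42-/- (adjusted p 0.145), and for Car13 3.46 (adjusted p 0.421) and 5.17 (adjusted p 0.0682). Car1 in Cdc42+/- passed there and not in the limma fit (adjusted p 0.999), as did Car2 in Cdc42-/-, and Car12 passed there in Cdc42+/- and not in Cdc42-/-, the reverse of the limma fit. At an adjusted p of 0.05, the authors' deposited table calls 2.28% of its genes in Cdc42+/- and 8.66% in Cdc42-/-.

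Gata3, the factor of type 2 helper T cells, stood at 47.0 and 44.9 RPKM in the WT libraries, 55.1 and 50.8 in the Cdc42+/- libraries, and 56.7 and 63.2 in Cdc42-/- (limma adjusted p 0.0790 for Cdc42-/- against WT), without overlap between Cdc42-/- and WT. Was, which encodes an actin regulator that binds Cdc42, stood at 83.2 and 77.7 RPKM in the WT libraries, 81.3 and 82.9 in the Cdc42+/- libraries, and 74.5 and 69.0 in Cdc42-/- (limma adjusted p 0.319 for Cdc42-/- against WT).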

How the data were processed

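RNA-seq tables of 6 libraries (2 per genotype) were used. TopHat and mm10 are named in the submitters' processing notes, without a version; the counting tool, annotation and strand setting are not given in the sources used here. The deposited library columns are RPKM, a unit worked out from the values. The deposited tables further give, per the file headers, the authors' group means (a signal: reads divided by library size factors), fold change, its log2, and p-values. Whole reads were recovered from RPKM and group means (100% of values whole within 0.001). There were 0 columns of unknown sample.

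Only genes whose mean over the libraries reached 0.5 RPKM entered the test. It used limma 3.58.1 (R 4.3.3, lmFit, eBayes with trend) on log2(RPKM + 1), all 6 libraries in 1 fit. The fit was run on simulated data in which all libraries had the same dispersion, so unequal spread between genotypes was not tested. The labels give 2 mice per genotype and do not tie mice to libraries, so p-values measure only the spread between these libraries. Floors of 3 reads cover counting error only.

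The members, gene lists and the rule for similar profiles (4 nearest genes per member) were chosen with earlier results of these data known. Marker genes named without a call were chosen after their values were seen. Some genes of these lists are not reported here.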

Additional observations from a re-analysis of the deposited data

How the results depend on the processing

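Over the 12 member results (4 genes, 3 comparisons, 15 alternatives each), 155 values kept their direction and side of the threshold. Directions of Car1, Car5b and Car12 held throughout; Car2 in Cdc42+/- against WT turned without WT replicate 1 (log2 -0.25, adjusted p 0.997). In Cdc42-/- against WT, Car1 lost its call with only the 2 genotypes compared (0.0548) and with voom (0.462), and Car12 with no filter (0.0740), only the 2 genotypes (0.133), library weights (0.0941) and the replicate number as a block (0.0721); the cause was not tested. Same-numbered libraries correlated at 0.0177, 0.202 and -0.0343 in their deviations from the group means, so they share only a number. The block also ended the calls of Tesc in Cdc42-/- against WT (0.0534) and Cdc42+/- (0.0583). It changed no other member's call, and calls over all genes were 1144 in place of 1398 in Cdc42-/- against WT and 809 in place of 1006 against Cdc42+/-. Library weights gave Car1 a call in Cdc42-/- against Cdc42+/- (0.0343).

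Leaving out 1 library gave adjusted p of 0.727 to 1 for Car2 in Cdc42+/- against WT, and ranges in Cdc42-/- against WT of 0.000101 to 0.131 for Car1, 0.00101 to 0.350 for Car2, 0.00164 to 0.0628 for Car5b and 0.0103 to 0.229 for Car12. Against Cdc42+/- they were 0.000335 to 0.347 for Car1, 0.00178 to 0.465 for Car2 and 0.00353 to 0.173 for Car5b. A lone library was assumed to vary like the other groups. Members called in Cdc42-/- against WT were 3, or 1 with only the 2 genotypes and 0 to 4 leaving out 1 library; against Cdc42+/- they were 1, or 2 with library weights and 0 to 3 leaving out 1 library. Genes called overall in Cdc42-/- against WT were 536 with only the 2 genotypes, 885 with library weights and 259 to 4433 leaving out 1 library (259 and 262 without WT replicate 1 or 2, 4433 and 2263 without Cdc42-/- replicate 1 or 2). Against Cdc42+/- they were 276 with only the 2 genotypes and 0 to 4263 leaving out 1 library (0 without either Cdc42+/- library). Against WT, Cdc42+/- had 0, or 60 with only the 2 genotypes, 88 with library weights, 1 with voom, and 76 or 66 without Cdc42-/- replicate 1 or 2. The Cdc42 difference turned without Cdc42+/- replicate 2 in Cdc42+/- against WT (log2 0.01, adjusted p 1) and without Cdc42-/- replicate 1 against WT (0.08, 0.474) and against Cdc42+/- (0.11, 0.322); leaving out 1 library its adjusted p was 0.895 to 1, 0.0166 to 0.765 and 0.0259 to 0.880 in these comparisons. Car1 had 0 reads in WT, for which 3 reads per library is about the upper 95% limit (0.144 and 0.268 RPKM).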
